A study of Rattus norvegicus with 6 samples.

Results

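The microRNA genes Mir21, Mir146a, Mir146b, Mir155, Mir34a, Mir34b and Mir34c, which are known for induction by cell stress and inflammatory cytokines, were followed in rat β-cell lines with and without the PWS-imprinted domain. They were chosen by gene symbol and not by their values, though with earlier results of these data known. They make up 7 of the 32883 genes in the table and 7 of its 462 listed miRNA genes. Small RNAs were sequenced from 6 clonal INS-1 lines, 3 control (5-9, 2 and 16) and 3 PWS (3, 19-1 and 19-4), with 1 library per line. INS-1 is a rat insulinoma line that secretes insulin. The comparison asks whether loss of the domain goes together with a resting stress or cytokine miRNA response.

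Every line carries the human INS-neoR and mouse Ins2-C-mCherry transgenes, and every line, control or PWS, lacks the domain on the silent maternal copy. The control lines keep the active paternal copy, whereas the PWS lines lack both copies. Line 5-9 is the parent of the other 5 lines, and 19-1 and 19-4 were both isolated from 1 edited line, so the libraries are not independent editing events. All cells were grown at 7.5 mM glucose and none was given a cytokine, fatty acid or stressor, so no library shows how far these miRNAs can rise in this model. Since each clone gave 1 library, p-values rest on the spread between libraries, in which clone and library preparation cannot be told apart. In RNA from whole cultures, fewer cells of a kind and less RNA per cell cannot be told apart.

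miRNAs are short RNAs cut from a hairpin precursor and loaded into Argonaute, where the seed (bases 2 to 8 from the 5′ end) pairs with messenger RNAs and lowers their output. In β cells, interleukin-1β and tumour necrosis factor act through NF-κB to induce miR-21 and miR-146a, and miR-146 in turn restrains the adaptors Irak1 and Traf6. miR-155 is best known from activated lymphocytes and macrophages. miR-34a, miR-34b and miR-34c are direct transcriptional targets of p53, and miR-34a also rises in β cells exposed to saturated fatty acids.

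The mature 5p sequences are shown because the seed decides which of these genes can act on the same targets, and so which should be read together. They are RefSeq sequences for the rat assembly GRCr8, found for 7 of 7 members and printed 5′ to 3′ with the seed in capitals.

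miR-21-5p: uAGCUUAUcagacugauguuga

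miR-146a-5p: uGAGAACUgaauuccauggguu

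miR-146b-5p: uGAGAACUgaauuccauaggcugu

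miR-155-5p: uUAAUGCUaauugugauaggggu

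miR-34a-5p: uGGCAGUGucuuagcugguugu

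miR-34b-5p: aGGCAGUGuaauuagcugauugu

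miR-34c-5p: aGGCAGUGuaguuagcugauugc

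The other 2 genes of the table whose mature miRNA has the miR-34 seed, Mir449a and Mir449c, are shown for the same reason.

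miR-449a-5p: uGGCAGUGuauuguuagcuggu

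miR-449c-5p: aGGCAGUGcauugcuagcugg

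The seeds sort these 9 genes into 4 groups. miR-21 and miR-155 each stood alone, miR-146a and miR-146b shared GAGAACU, and miR-34a, miR-34b, miR-34c, miR-449a and miR-449c shared GGCAGUG. Counted from 1 at the 5′ end, miR-146b differed from miR-146a by G18A and U21C over the 22 bases compared position by position, and had 2 further bases at its 3′ end. miR-34c differed from miR-34b by A11G and U23C.

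In GRCr8 the Mir21 hairpin lies at chr10:71902600-71902691 on the minus strand beside the Vmp1 gene, and Mir146a at chr10:28349996-28350090 on the minus strand. Mir146b lies at chr1:255144860-255144947 on the plus strand, Mir155 at chr11:37261114-37261178 on the plus strand within its host RNA Mir155hg, and Mir34a at chr5:165815952-165816053 on the plus strand. Mir34b (chr8:60306609-60306692) and Mir34c (chr8:60306091-60306167) lie 441 bases apart on the minus strand beside Btg4. The deposited counts were made on an earlier assembly, Rnor_6.0, and were matched by gene identifier and symbol, not by these positions. Each deposited row is a hairpin gene, so reads of its 5p and 3p arms are summed.

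The libraries held 7373691 to 16480475 reads assigned to genes, 88.6 to 90.2% of them in miRNA genes. A read that matched several gene copies was counted for each, so these totals exceed the number of distinct reads. Values below are normalized reads, that is, reads divided by a library size factor, and 3 reads, taken as the limit of a count of 0, come to between 1.78 and 3.96 normalized reads. The labels held for the deleted domain: the 36 Snord116 genes together had 4251 to 10516 reads in the control lines and 2 to 3 in the PWS lines. All 10 β-cell markers were detected, led by Mir7a1, Mir7a2 and Mir375, and none of the 10 was called. Named after their values were seen, the 2 with an unadjusted p under 0.05 by limma were fragments of Ins2 (log2 fold change -2.03, p of 0.015, 0 reads in line 19-4) and of Chgb (1.27, p of 0.0273, all PWS lines above all control lines, as in 4.87% of all tested genes). Of 4292 genes tested, 55 (1.28%) differed between the genotypes at an adjusted p under 0.1 by limma, all of them lower in the PWS lines. The 262 tested miRNA genes held 8 of these calls (3.05%), namely Mir135b, Mir3065 and 6 copies of Mir344. The paper places Mir344 within the deleted domain, and Mir135b and Mir3065 outside it. These shares, and those of lower genes given below, therefore include genes that the PWS lines lack.

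None of the 6 stress miRNA genes that could be tested was called, and none had an unadjusted p under 0.05, against 256 of 4292 tested genes and 41 of 262 tested miRNA genes that did. Mir155 was too scarce to test. The PWS mean was higher for 2 members, Mir21 and Mir34a by log2 fold change, and lower for 4. The median log2 fold change of the 6 was -0.082, beside 0.0048 over all tested genes and -0.14 over tested miRNA genes. Their median size regardless of sign was 0.17, beside 0.33 and 0.27. In none of the 7 did the PWS lines all lie above or all lie below the control lines. Among tested miRNA genes 3.05% lay wholly above and 13.0% wholly below, and among all tested genes 4.87% and 6.29%, so a count of 0 among so few genes is not far from that background. DESeq2, edgeR and limma-voom, run as alternatives on the recovered reads, called 0 of them too.

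**Figure D1:**
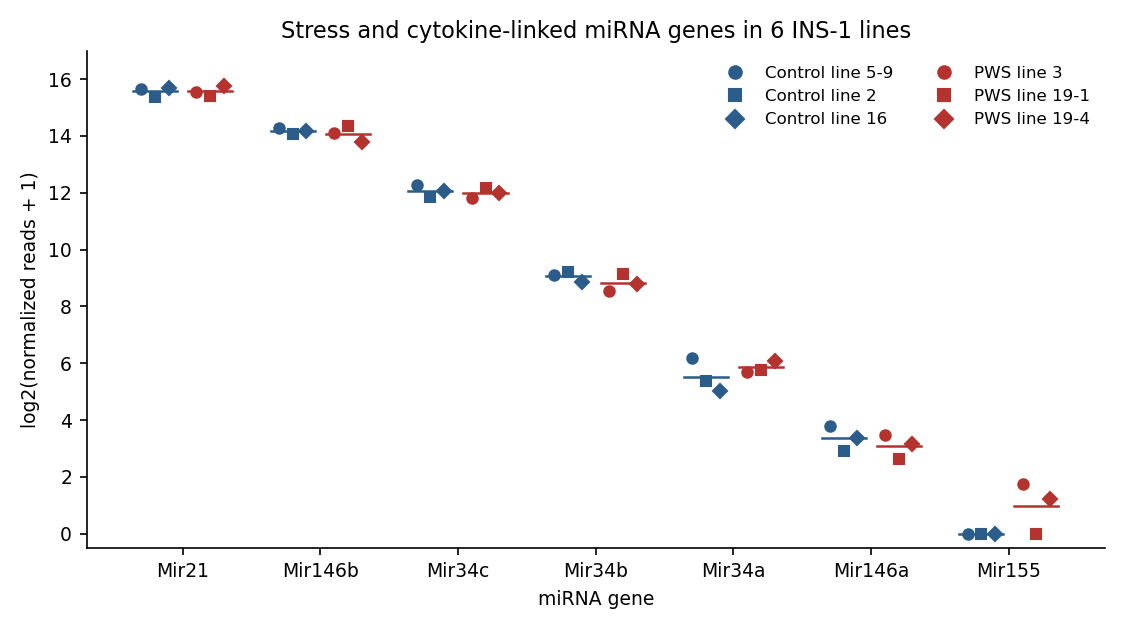
Level of each of the 7 miRNA genes, as log2(normalized reads + 1), in the 3 control lines (blue) and the 3 PWS lines (red); each point is 1 library and each bar the mean of a group on this scale. The genes range from Mir21, at 42370 normalized reads or more in every line, to Mir155, at 0 in 4 of 6 lines, and the groups overlap in all 7.

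miR-21 dampens programmed death and growth brakes such as Pdcd4 and the Sprouty proteins, and is among the most widely stress-induced miRNAs. Mir21 was the most abundant member. It had 51704, 42370 and 52196 normalized reads in control lines 5-9, 2 and 16, and 47636, 43753 and 56008 in PWS lines 3, 19-1 and 19-4. The highest and the lowest line, 19-4 and 2, were thus of different genotypes and differed by 1.32-fold. The means were 48757 ± 5536 in the control and 49132 ± 6263 in the PWS lines (SD, n = 3 each). The log2 fold change was 0.0099 ± 0.20 (SE), with an adjusted p of 0.992 by limma. Its 95% interval ran from -0.42 to 0.44, or from 0.748 to 1.35 times the control level. The direction of this small difference was not fixed, since it was -0.088 without control line 2 and -0.088 without PWS line 19-4.

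miR-146a and miR-146b carry the same seed and are induced through NF-κB, after which they damp the signal from interleukin-1 and Toll-like receptors. Almost all reads of this pair came from Mir146b. It had 20091, 17234 and 18288 normalized reads in lines 5-9, 2 and 16, and 17766, 20768 and 14051 in lines 3, 19-1 and 19-4. The 2 extremes were both PWS lines, and they were the sister clones 19-1 and 19-4. The means were 18538 ± 1445 in the control and 17528 ± 3365 in the PWS lines, and the log2 fold change was -0.096 ± 0.22 with an adjusted p of 0.956 by limma. The 95% interval was 0.682 to 1.28 times the control level. Without line 19-4 the log2 fold change was 0.054.

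Mir146a, the member of the pair most often used as a readout of NF-κB in β cells, was close to the detection limit. It had 13, 5 and 12 reads in control lines 5-9, 2 and 16 and 17, 5 and 6 in PWS lines 3, 19-1 and 19-4. On the normalized scale these were 12.8, 6.54 and 9.26 against 10.1, 5.25 and 7.91, with the control and PWS lines interleaved. The log2 fold change was -0.26 ± 0.43 with an adjusted p of 0.942 by limma, and the interval, 0.446 to 1.56 times the control level, was the widest of the 6 on the log2 scale (-1.17 to 0.64). Its coefficient of variation over the 6 lines, 31.2%, did not exceed the 34.1% that counting error alone would give at this depth. A change in Mir146a within that interval was not detectable at this depth. Summed over the seed, miR-146 had 18547 ± 1448 normalized reads in the control and 17536 ± 3363 in the PWS lines, with Mir146a providing 0.0479% of the reads.

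Mir155 was counted 0 times in each of the 3 control lines, among 33330337 assigned reads in all. In the PWS lines it was counted 4 times in line 3, 0 times in line 19-1 and 1 time in line 19-4. The pooled PWS value was 1.47 normalized reads per library, with an exact Poisson interval of 0.478 to 3.44 that covers counting error only. The upper bound of the same interval for the 0 in the pooled control lines is 1.2. Only line 3, the deepest library, had more than 3 reads, so Mir155 is given without a fold change. With no filter on low values, limma gave an unadjusted p of 0.0769 and an adjusted p of 0.89.

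The miR-34 family lowers cell-cycle and survival genes such as Cdk6, Met and Bcl2, and in β cells also the exocytosis gene Vamp2. Mir34c was its most abundant gene here. It had 4894, 3723 and 4299 normalized reads in control lines 5-9, 2 and 16, and 3610, 4627 and 4079 in PWS lines 3, 19-1 and 19-4. The control and PWS lines interleaved, from line 3 at the bottom to line 5-9 at the top. The log2 fold change was -0.067 ± 0.22, with an adjusted p of 0.973 by limma and an interval of 0.687 to 1.33 times the control level. Its sign turned without line 5-9 (0.03) and without line 3 (0.022). It was also 0.028 when libraries were scaled to their miRNA total, a scaling that moved the median of all tested genes from 0.0048 to 0.092.

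Mir34b, its neighbour, had 552, 595 and 468 normalized reads in lines 5-9, 2 and 16 and 375, 564 and 438 in lines 3, 19-1 and 19-4. Lines 3 and 19-4 lay below all controls, while 19-1 lay within them. The log2 fold change was -0.24 ± 0.26, with an adjusted p of 0.898 by limma and an interval of 0.576 to 1.24 times the control level.

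Mir34a, the family member most closely tied to p53, had a higher mean in the PWS lines. It had 70.9, 40.5 and 31.6 normalized reads in lines 5-9, 2 and 16, from 72, 31 and 41 reads. The PWS lines 3, 19-1 and 19-4 had 51.1, 53.6 and 67.2, from 86, 51 and 51 reads. All 3 PWS lines lay above control lines 2 and 16 and all 3 lay below control line 5-9, the parent line. The means were 47.7 ± 20.6 and 57.3 ± 8.7, and the log2 fold change was 0.33 ± 0.35 with an adjusted p of 0.898 by limma. The 95% interval, 0.753 to 2.1 times the control level, includes both no change and a rise to 2.1 times. The value rested on single control lines: the log2 fold change was 0.65 without line 5-9, with an unadjusted p of 0.0904, and 0.083 without line 16, with an unadjusted p of 0.83.

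**Figure D2:**
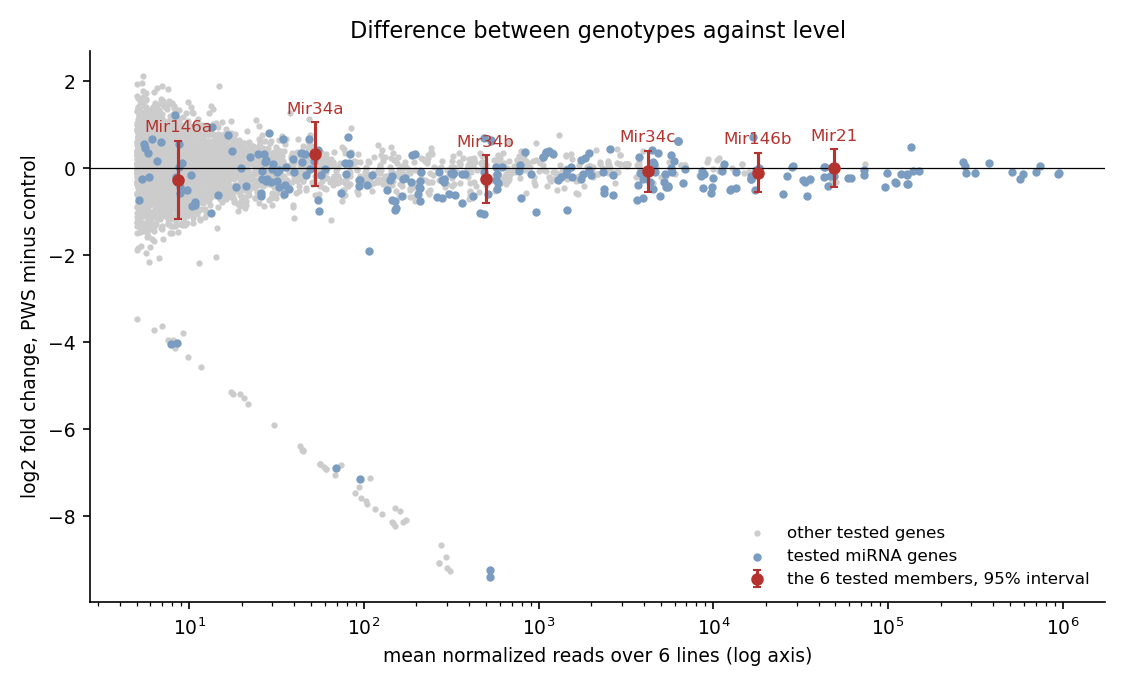
Log2 fold change, PWS minus control, of every tested gene against its mean normalized reads over 6 lines (log axis), with tested miRNA genes in blue and the 6 tested stress miRNA genes in red with 95% intervals. All 6 intervals include 0 and 4 of them (Mir21, Mir146b, Mir34b and Mir34c) stay between -1 and 1 on the log2 scale, while the called genes form the low arm at the bottom.

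The spread over the lines was set beside the counting error. The observed coefficient of variation over the 6 lines was 10.8% for Mir21, 13.2% for Mir146b and 12.0% for Mir34c, where counting error alone would give 0.453%, 0.746% and 1.55%. With 1 library per clone, differences between clones and between library preparations cannot be told apart in this spread. For Mir34b the 2 values were 17.1% and 4.49%, and for Mir34a 28.7% and 13.8%.

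**Figure D3:**
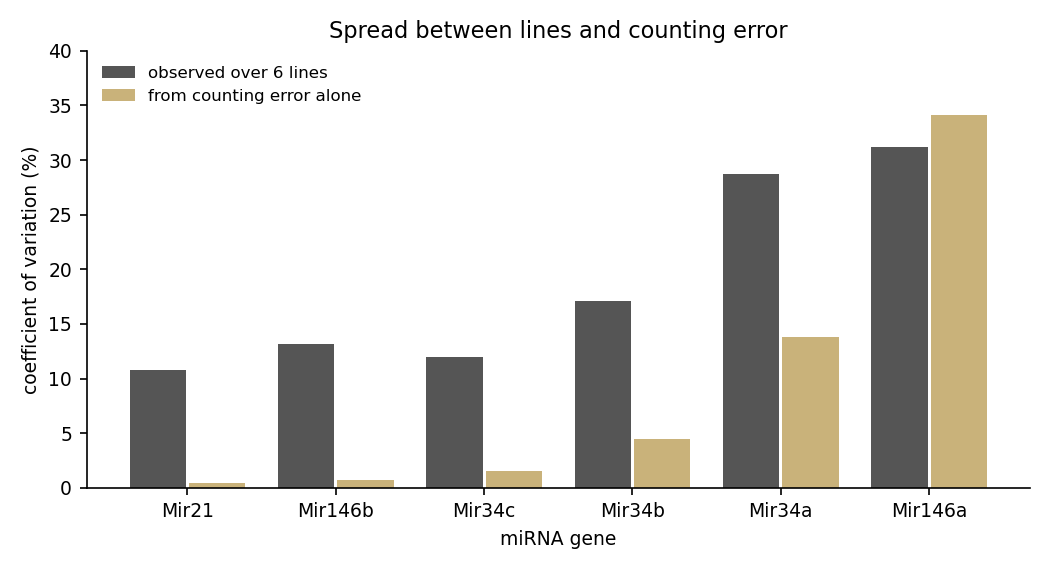
Coefficient of variation of normalized reads over the 6 lines (grey) and the part that counting error alone would give (tan), in percent, for the 6 tested genes in order of level. The observed spread exceeds counting error in all but Mir146a, for which the bars stand at 31.2% and 34.1%.

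The genes with the miR-34 seed were then read together. Mir449a and Mir449c, which come from 1 gene cluster and share targets with miR-34, were scarce. Mir449a had 50.2, 99.4 and 70.2 normalized reads in control lines 5-9, 2 and 16, and 46.9, 39.9 and 23.7 in PWS lines 3, 19-1 and 19-4. All PWS lines were below all control lines, as in 13.0% of tested miRNA genes. The log2 fold change was -0.97 ± 0.36, with an unadjusted p of 0.016 and an adjusted p of 0.736 by limma, so Mir449a was not called. Mir449c had 14.8, 30.1 and 14.7 in the control and 19.6, 28.4 and 11.9 in the PWS lines, with overlapping groups and an adjusted p of 0.998 by limma. The summed seed was 4984 ± 554 normalized reads in the control and 4679 ± 608 in the PWS lines. Mir34c gave 87.0% of it, Mir34b 10.3%, Mir449a 1.14%, Mir34a 1.09% and Mir449c 0.412%.

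Levels were compared between genes as normalized reads per 100 bases of hairpin, over 292 miRNA genes with reads and a RefSeq hairpin. Gene copies that can count the same reads hold separate ranks. Mir21 had 53201 and ranked 26, Mir146b had 20492 and ranked 39, and Mir34c had 5462 and ranked 69. Mir34b had 594 at rank 111, Mir34a 51.5 at rank 156 and Mir146a 9.1 at rank 198. Mir155, at 0.947 and rank 251, rested on 5 reads. Each neighbour in this order was separated in all 6 lines, in that the lowest line of the higher gene exceeded the highest line of the lower gene. The closest neighbours were Mir146a and Mir155, at 5.53 against 3.65, which is 5 reads in line 19-1 against 4 reads in line 3. By this measure the step from Mir34c to Mir34b was 9.2-fold although the hairpins lie side by side, and that from Mir34b to Mir34a was 11.5-fold. These steps depend on the division by hairpin length. Their means over the 6 lines without it were 4205 for Mir34c, 499 for Mir34b and 52.5 for Mir34a.

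Ratios within a library do not depend on its size factor. Per hairpin base, Mir34c exceeded Mir34b by 9.68, 6.83 and 10.0 in control lines 5-9, 2 and 16 and by 10.5, 8.95 and 10.2 in PWS lines 3, 19-1 and 19-4. This was the steadiest of the 5 ratios examined, with a highest value 1.54 times the lowest. The ratio of Mir34c to Mir34a ran from 91.4 to 180 in the control and from 80.4 to 114 in the PWS lines, and that of Mir34b to Mir34a from 9.44 to 18.0 and from 7.9 to 12.8. The ratio of Mir146b to Mir146a ran from 1694 to 4268 over all lines, with 5 to 17 reads of Mir146a behind each value. Mir21 exceeded Mir146b by 2.35 to 2.73 in the control lines and by 2.56, 2.02 and 3.81 in PWS lines 3, 19-1 and 19-4. The groups overlapped in all 5 ratios.

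**Figure D4:**
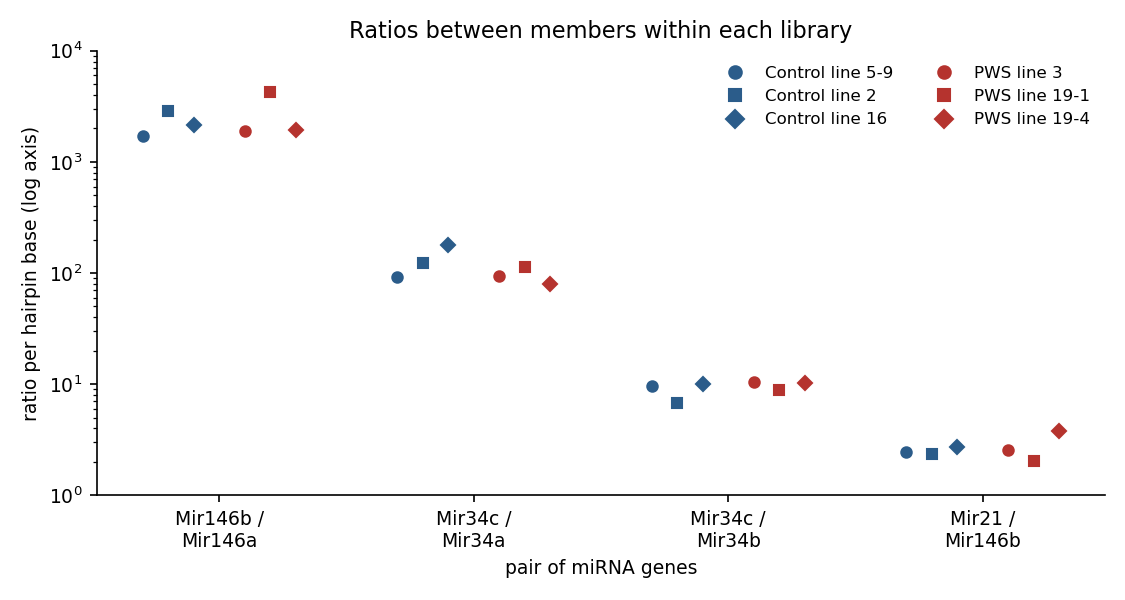
Ratio of 2 miRNA genes within each library, per hairpin base and on a log axis, in the 3 control lines (blue) and the 3 PWS lines (red), 1 point per line. The ratio of Mir34c to Mir34b stays between 6.83 and 10.5, and control and PWS lines overlap in each of the 4 ratios drawn.

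The miRNA genes most like the members in their pattern over the 6 libraries were named among 198 genes that averaged 50 normalized reads or more, by Pearson's r of log2(normalized reads + 1), as a description. For Mir146b they were Mir375, the islet miRNA, with r of 0.986, and Mir322-2 with 0.977. For Mir34b they were Mirlet7i (0.922) and Mir27b (0.903), and for Mir34a Mir106b (0.88) and Mir93 (0.854). For Mir21 they were Mir101-2 (0.852) and Mir3064 (0.739), and for Mir34c Mir542-3 (0.84) and Mir542-2 (0.832). These 6 points share the same libraries, size factors and depth.

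Other miRNA genes linked to the same signals were read from lists. Of the other p53-linked miRNAs, 7 of 10 listed were tested and 0 were called, with a median log2 fold change of 0.059. Its most abundant genes were Mir16 (log2 fold change 0.059 ± 0.19), Mir192 (0.49 ± 0.27) and Mir194-2 (0.097 ± 0.29). None of the 7 separated the groups, and the smallest adjusted p was 0.851 by limma.

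Of the other NF-κB or inflammation-linked miRNAs, 5 of 13 listed were tested and 0 were called, with a median log2 fold change of -0.26. Mirlet7i had -0.085 ± 0.19 and Mir125b1 had -0.34 ± 0.29. Mir132 had 28314, 21926 and 41187 normalized reads in control lines 5-9, 2 and 16 and 20748, 17320 and 20482 in PWS lines 3, 19-1 and 19-4. All PWS values were below all control values, as in 13.0% of tested miRNA genes. The log2 fold change was -0.60 ± 0.24, with an unadjusted p of 0.0229 and an adjusted p of 0.831 by limma. Mir147 was singled out after its values were seen, as the only gene of these 3 miRNA lists that lay wholly above the controls. Among tested miRNA genes 3.05% lay wholly above. Mir147 had 13.1 to 24.7 in the control and 26.7 to 47.5 in the PWS lines, with an unadjusted p of 0.0463 and an adjusted p of 0.831 by limma. Thus 2 of the 5 tested genes of this list had an unadjusted p under 0.05, beside 41 of 262 tested miRNA genes.

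Of 12 further miRNAs that respond to cytokines or fatty acids in β cells, 8 were tested and 0 were called, and all 8 had a lower fitted level in the PWS lines. Their median log2 fold change was -0.44, beside -0.14 over tested miRNA genes. The list does not give the direction in which each responds, so whether lower goes with or against such a response was not tested. Mir23b had 45391, 42548 and 34049 normalized reads in lines 5-9, 2 and 16 and 33745, 33937 and 15290 in lines 3, 19-1 and 19-4. Its groups did not overlap and its unadjusted p was 0.0356, but its adjusted p was 0.831 by limma. Mir204 had a log2 fold change of -0.46 ± 0.24 and Mir101a of -0.22 ± 0.21, and Mir101a too lay wholly below the controls. Among all tested miRNA genes 13.0% lay wholly below. Line 19-4 was the lowest line in the sum of this list, at 43439 against 76071 to 101570 in the other 5 lines. Mir29b1 and Mir29b2, both in that sum, encode the same mature miRNA and can count the same reads, so their values are not separate evidence.

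Fragments of messenger RNA were also counted in these libraries, at levels too low for most genes to be tested. They are pieces caught in a small RNA library and not a measure of the whole messenger RNA. Of 20 p53 target genes 7 were tested and 0 called, with 3 higher and 4 lower fitted levels in the PWS lines and a median log2 fold change of -0.35. The most abundant were Ccng1 (0.39 ± 0.38), Btg2 (0.37 ± 0.40) and Sesn2 (-0.52 ± 0.38) in log2 fold change. Of 26 cytokine-response genes 2 were tested, namely the interferon factor Irf1 (0.082 ± 0.36) and the mitochondrial superoxide dismutase Sod2 (0.00064 ± 0.38), and neither was called. Nfkbia, the NF-κB inhibitor that NF-κB itself induces, was singled out after its values were seen. It had 1.97, 3.92 and 2.31 normalized reads in control lines 5-9, 2 and 16 and 5.35, 5.25 and 5.27 in PWS lines 3, 19-1 and 19-4. The groups did not overlap, but at 26 reads in all Nfkbia was below the filter and was not tested. Among all tested genes 4.87% lay wholly above the controls. The chemokine genes Cxcl1, Cxcl2, Ccl2 and Ccl20, the nitric oxide synthase Nos2 and Isg15 had 0 reads in every line. Of the same list, the chemokine genes Cxcl10 and Cxcl11, with Birc3, Icam1 and Socs3, were counted in PWS lines only, at 1 to 3 reads each in all. Socs1 and Gbp2 were counted in control lines only, at 6 and 1 reads. Of 15 established targets of the members 4 were tested and 0 called, with 3 higher and 1 lower fitted levels and a median log2 fold change of 0.55. Irak1, a miR-146 target named after its values were seen, had the largest, 1.26 ± 0.61. Its groups overlapped and its adjusted p was 0.835 by limma. Vamp2, a target of miR-34a, had a log2 fold change of -0.32 ± 0.53. Spry1, a miR-21 target, had 7.84 to 11.6 normalized reads in the control and 13.2 to 30.5 in the PWS lines. Its groups did not overlap, as in 4.87% of all tested genes, and its adjusted p was 0.835 by limma. Of the host and neighbour genes, Vmp1 had 0.594 to 10.5 normalized reads over the 6 lines and Btg4 had 0.

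Markers of other cells were scarce beside the β-cell miRNAs, and none was called. The blood-cell miRNA Mir142 had 44.3 to 69.3 normalized reads in the control and 43.1 to 75.1 in the PWS lines, while Mir223 and Ptprc had at most 3.92 and 1.32. Mir143 of stroma had 13.1 to 39.4 and 35.7 to 48.8, Mir145 was at 0, and Mir126a of endothelium had 13.9 to 32.5 and 18.5 to 35.6. The acinar Mir216a and Mir217 together had 2.1 to 15.4 over the 6 lines. The 3 gene copies of the neuronal miR-124, which is also expressed in β cells, encode the same mature miRNA and can count the same reads. One of them, Mir124-1, had 136 to 265 in the control and 55.4 to 148 in the PWS lines, with a log2 fold change of -0.95, an unadjusted p of 0.0198 and an adjusted p of 0.815 by limma. The unadjusted p was 0.04 for Mir124-2 and 0.0912 for Mir124-3. The part of any other cell in the levels of the members was not tested.

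**Figure D5:**
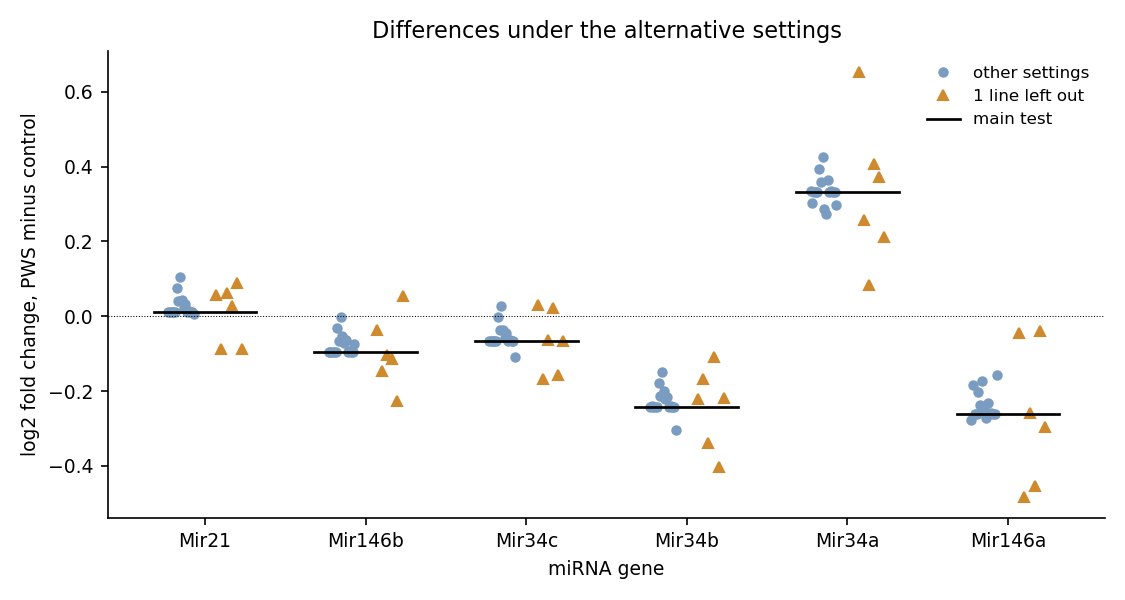
Log2 fold change, PWS minus control, of the 6 tested genes under the main test (black bar), under other processing settings (blue) and with 1 line left out (orange). Mir34a stays above 0 and Mir146a and Mir34b stay below it under the settings run, while Mir21, Mir146b and Mir34c take both signs.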

How the data were processed

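The deposited tables hold 1 column per line and 2 counting modes. The authors trimmed reads with cutadapt 1.18, collapsed unique molecular identifiers with UMI-tools 1.0.0, aligned to Rnor_6.0 with Bowtie2 2.3.4.2, counted hairpin and other genes with HTSeq 0.11.2 (multiply assigned reads counted for all genes or for none) and divided the counts by DESeq2 size factors; featureCounts is also named in the submitters' processing notes, without a role. The deposited values are therefore a normalized signal (reads per gene divided by a size factor), from which whole reads were recovered for 100% of values within 0.001. Columns of the authors' own comparison were not used, namely fold changes and p-values.

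Here, genes averaging 5 or more normalized reads over the 6 libraries were tested with limma 3.58.1 (limma-trend, genotype only) on log2(value + 1), so fold changes of low genes are understated, and p-values were Benjamini-Hochberg adjusted over all 4292 tested genes. Calls required adjusted p below 0.1. The scripts were tested on simulated data. edgeR 4.0.16 and DESeq2 1.42.0 on recovered reads were among 22 alternatives. The table counted for all genes was used, and all 7 genes had the same reads in both tables. The 7 genes, the lists and the tests were chosen with earlier results of these data known. The rule for genes named besides the 7 took those sharing a seed, the 2 most similar miRNA genes, the hosts, and in each list the called genes and the 3 tested genes with the highest control mean. Cell markers were named from their lists. List genes outside the rule were named after their values were seen. They were Mir147, Nfkbia, Ins2, Chgb, Irak1, Mir29b1, Mir29b2, the genes at 0 and those counted in a single genotype. One gene that the rule takes is not reported here.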

Additional observations from a re-analysis of the deposited data

How the results depend on the processing

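None of the 6 tested genes was called under any of the 22 alternatives run for each (21 for Mir146a, which a filter at a mean of 20 removes). The number of genes called in all stayed within 1.5 times of 55. Mir34a stayed positive and Mir146a and Mir34b negative in every alternative run for them. Leaving out 1 line at a time gave log2 fold changes of -0.088 to 0.090 for Mir21, -0.23 to 0.054 for Mir146b and -0.17 to 0.030 for Mir34c, which all changed sign. The same range was -0.48 to -0.040 for Mir146a, 0.083 to 0.65 for Mir34a and -0.40 to -0.11 for Mir34b. Scaling to the miRNA total gave 0.028 for Mir34c, with the median of all tested genes at 0.092, and the cause was not tested. Depth limits Mir146a and Mir155.

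Adding a replicate block gave 56 called genes, 55 of which the fit without it also called, and 0 of the 6 tested genes. Not all same-numbered lines paired: the correlations of their deviations over 1087 genes were 0.414, 0.218 and -0.0574, and 3 of 6 lines correlated best with their own number.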
